A study of Mus musculus with 6 samples.

Results

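Amino acid transporters of mouse liver were examined 1 h after interleukin-6 (IL-6), a cytokine that signals to hepatocytes through gp130 and STAT3. The set held 10 genes, Slc38a1, Slc38a2, Slc38a3, Slc38a4, Slc7a1, Slc7a2, Slc7a5, Slc3a2, Slc1a5 and Slc43a1, of 19938 genes measured, and 11 probe sets of 35556 on the arrays. A probe set is a group of array probes along one transcript, and members were taken by the gene symbol that the platform table gives it. The set was chosen by a measured value, the higher level of Slc38a2 after IL-6 in these same arrays. The differences between the groups are therefore given for all 10 members as a description, with no p-value, and the count of members past the threshold is printed only beside that of all genes.

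The animals were male C57BL6 mice of 10 weeks that had been fasted for 16 h overnight. The IL-6 group received 100 ng of IL-6 per mouse into the peritoneum and the saline group received saline, and whole livers were collected 1 h later. Each group had 3 arrays, and both groups shared the fast, the strain and the sex. The labels list the arrays as separate samples but do not say outright that each was a different mouse. The spread below is therefore that between samples. The standard errors and intervals of the differences are moderated by limma, which draws the variance of each gene toward a value shared by all genes. They are therefore not a measure of the spread of that gene alone, while each SD is. In whole liver, fewer cells of a type and less RNA per cell cannot be told apart.

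Amino acid transporters of the plasma membrane decide how fast hepatocytes take up alanine, glutamine and other amino acids, which a fasted liver turns into glucose and urea. Sodium-coupled carriers of the SLC38 family load the cell with small neutral amino acids. Exchangers and uniporters of the SLC7 and SLC43 families pass on leucine and other large or cationic amino acids. Slc1a5, of the SLC1 family, encodes a glutamine exchanger. The gene for SNAT2, Slc38a2, is known to be induced when amino acids are scarce, through the transcription factor ATF4, and its activity in liver is known to answer hormones such as glucagon.

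The bases upstream of the transcription start are shown for Slc38a2, the gene for which the set was chosen, for Slc43a1, the member with the next highest difference, and for the second start of Slc7a1, the only member window that held the letters TTCNNNGAA, the core to which STAT proteins bind. They are 250 bases each from RefSeq promoter windows on GRCm38.p6, given 5′ to 3′ on the strand of the gene, and capitals mark motif matches.
Slc38a2, chr15:96699729-96699978, minus strand: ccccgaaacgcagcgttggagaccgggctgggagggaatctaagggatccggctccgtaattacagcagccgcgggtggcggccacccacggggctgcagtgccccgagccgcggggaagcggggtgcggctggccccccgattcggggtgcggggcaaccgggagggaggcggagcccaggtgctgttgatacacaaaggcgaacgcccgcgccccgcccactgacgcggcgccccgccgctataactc
Slc43a1, chr2:84840073-84840322, plus strand: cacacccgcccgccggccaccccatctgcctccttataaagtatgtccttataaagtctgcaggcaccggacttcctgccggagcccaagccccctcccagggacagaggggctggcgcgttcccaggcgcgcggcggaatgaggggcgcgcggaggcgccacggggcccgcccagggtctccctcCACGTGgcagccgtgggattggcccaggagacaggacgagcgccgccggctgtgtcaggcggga
Slc7a1, second start, chr5:148392816-148393065, minus strand: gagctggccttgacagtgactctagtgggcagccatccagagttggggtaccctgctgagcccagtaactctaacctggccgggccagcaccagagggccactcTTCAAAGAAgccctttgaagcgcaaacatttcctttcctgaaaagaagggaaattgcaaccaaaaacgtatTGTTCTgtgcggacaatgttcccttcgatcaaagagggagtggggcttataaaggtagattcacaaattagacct

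Windows were at hand for 5 members, with 8 starts between them, and ran from 250 bases before to 50 bases after each start. On both strands, the search covered TTCNNNGAA, the element TGATGNAAN that binds C/EBP and ATF factors, the cyclic AMP element TGACGTCA, the AP-1 sites TGACTCA and TGAGTCA, the glucocorticoid receptor core TGTTCT and the E-box CACGTG. The Slc38a2 window held none of them, and its upstream bases were 72.0% G and C. TTCNNNGAA occurred in the second Slc7a1 window, and in 8.3% of all 32851 windows. TGTTCT occurred in the same Slc7a1 window and in 1 of 3 Slc38a4 windows, and in 19.0% of all windows. TGACTCA lay in the first Slc7a1 window (AP-1 sites in 5.2% of all windows) and CACGTG in that of Slc43a1 (7.15%), while TGATGNAAN (3.95%) and TGACGTCA (1.79%) were found in no member window. A match is a run of letters and not a shown binding site, and a missing match covers these windows only. The ATF4-responsive element known from human SLC38A2 lies within an intron, outside such a window.

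The arrays were alike, with Pearson correlations over all probe sets of 0.987 to 0.991. The 7 measured hepatocyte markers, albumin (Alb) among them, all lay above the 98th percentile of level. Socs3, the feedback inhibitor that STAT3 induces, was at 9.57, 9.45 and 9.63 log2 units in the IL-6 livers and at 6.61, 6.42 and 6.18 in the saline livers, so each IL-6 array carried the response. Along the second principal component, saline replicate 2 (-11.6) and IL-6 replicate 3 (-13.15) stood apart from the other arrays (1.83 to 9.65). Values without both are given for the members whose difference shifted most when both were left out, and not for single genes of the related lists. Over all genes, limma with Benjamini-Hochberg adjustment at 0.05, which is what called means here, called 77 genes higher and 7 lower.

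Of the 10 transporters, Slc38a2 was higher after IL-6 by 1.52-fold, and none of the others differed by as much as 1.5-fold in either direction. Slc43a1 had a difference of 1.37-fold and Slc7a2 of 0.81-fold. The fit called 1 member higher and 0 lower, beside 0.386% of all genes called higher and 0.0351% called lower. Since the set was chosen for that gene, the count says nothing about transporters as a group. In 6 members the difference was positive and in 4 negative, with a median of 0.06 log2 units over the members and of 0.00 over all genes. All 3 IL-6 arrays lay above all 3 saline arrays in 2 members (6.15% of all genes) and below them in 2 members (5.48% of all genes).

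**Figure D1:**
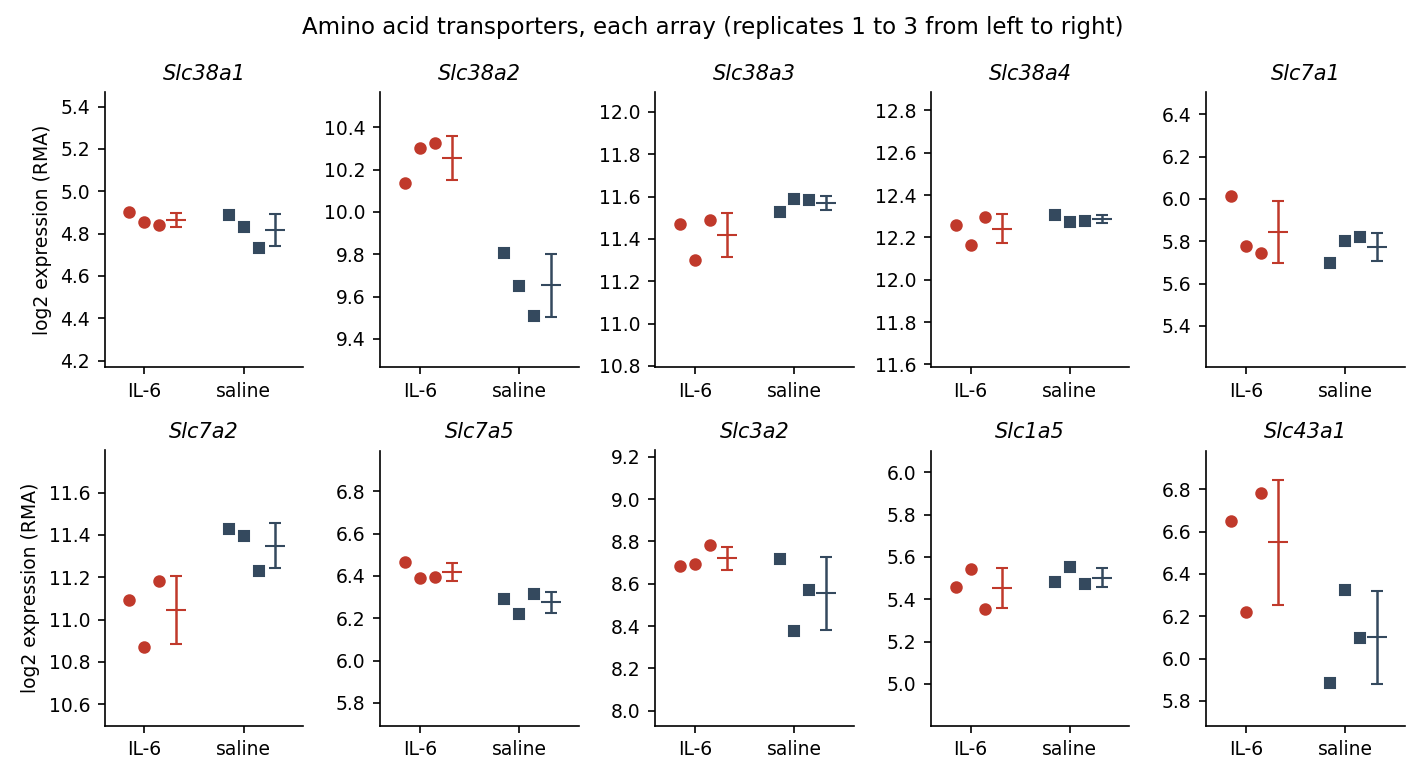
Log2 expression of each transporter in each array, IL-6 livers as circles and saline livers as squares, with the group mean ± SD beside them (n = 3). Each panel spans the same number of log2 units, so heights of steps can be compared between panels but levels cannot. Only the IL-6 arrays of Slc38a2 and Slc7a5 all lie above, and only those of Slc38a3 and Slc7a2 all lie below, their saline arrays.

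Slc38a2 encodes SNAT2, a sodium-coupled carrier of alanine, glutamine and other small neutral amino acids (system A). Its probe set 10431894 read 10.13, 10.30 and 10.33 log2 units in the IL-6 livers, against 9.80, 9.65 and 9.51 in the saline livers. The lowest IL-6 array stood above the highest saline array, which was saline replicate 1. The means were 10.25 ± 0.10 in IL-6 livers and 9.65 ± 0.15 in saline livers (SD, n = 3 each). The log2 difference was 0.60 ± 0.10 (moderated standard error, as for all differences here). In the whole table, 81 other genes had a higher signed difference. The difference stayed between 0.53 and 0.68 when any single array was left out and was 0.56 without both arrays that stood apart.

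Slc38a1, Slc38a2 and Slc38a4 follow each other on chromosome 15 with no other protein-coding gene between them. Slc38a4 encodes SNAT4, the system A carrier most typical of adult liver. It read 12.26, 12.17 and 12.30 in the IL-6 livers and 12.31, 12.28 and 12.28 in the saline livers, and the groups overlapped. Its difference was -0.05 ± 0.07, with a 95% interval from 0.87-fold to 1.08-fold, and it was -0.08 without both arrays that stood apart and -0.01 without IL-6 replicate 2.

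Slc38a1, which encodes the related carrier SNAT1, read 4.90, 4.85 and 4.84 in the IL-6 livers and 4.89, 4.83 and 4.73 in the saline livers. Its difference was 0.05 ± 0.07 with overlapping groups, at a level little above the 25th percentile of all genes (4.59). A second Slc38a1 probe set, 10431872, read 3.78, 4.25 and 3.81 in the IL-6 livers and 3.80, 3.50 and 3.34 in the saline livers. That difference was 0.40, the groups overlapped, and both means (3.95 and 3.55) lay below the 25th percentile, where signal and background are hard to separate.

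Slc38a3 belongs to another branch of the family and encodes SNAT3, a system N carrier of glutamine, histidine and asparagine that can run in both directions. It read 11.47, 11.30 and 11.49 in the IL-6 livers and 11.53, 11.59 and 11.59 in the saline livers. All IL-6 arrays lay below all saline arrays, by a small step of -0.15 ± 0.08. Without IL-6 replicate 2, the lowest array, the difference was -0.09.

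Slc7a2 had the most negative difference of the 10. It encodes CAT2, a carrier of arginine, lysine and ornithine whose low-affinity splice form is the hepatic one, and its single probe set does not separate the splice forms. It read 11.09, 10.87 and 11.18 in the IL-6 livers and 11.43, 11.39 and 11.23 in the saline livers. The groups did not overlap, although IL-6 replicate 3 and saline replicate 3 came within 0.05 log2 units of each other. The difference was -0.30 ± 0.10, and it was -0.21 without IL-6 replicate 2, -0.36 without saline replicate 3 and -0.35 without both arrays that stood apart. Its 95% interval, not adjusted for the number of genes, ran from 0.69-fold to 0.95-fold. Slc7a1, which encodes CAT1, the widely expressed high-affinity carrier of the same amino acids, read 6.01, 5.78 and 5.74 in the IL-6 livers and 5.70, 5.80 and 5.82 in the saline livers. Its groups overlapped, with a difference of 0.07 ± 0.09 and a 95% interval from 0.91-fold to 1.21-fold. The value was 0.13 without both arrays that stood apart and ran from -0.01 to 0.12 when any single array was left out.

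IL-6 replicate 2 was the lowest IL-6 array for Slc7a2, Slc38a3, Slc38a4, Slc43a1 and, narrowly, Slc7a5 (6.392 against 6.396 in IL-6 replicate 3). IL-6 replicate 2 also differed from the other IL-6 arrays in marker lists. Relative to the saline mean, the 9 Kupffer cell and macrophage markers averaged 0.27 log2 units there, while the other IL-6 arrays were at 0.01 and -0.03 and the saline arrays ran from -0.10 to 0.08. The 3 periportal hepatocyte markers measured averaged -0.24 there. The other IL-6 arrays were at -0.09 and -0.06 and the saline arrays ran from -0.08 to 0.07. Most of the periportal shift came from Hal, which read 10.67 in IL-6 replicate 2 against a saline mean of 11.34. Cyp2f2 read 11.71 against 11.73 and Pck1 12.37 against 12.41. The part of these shifts in the transporter values was not tested. Of all 11 marker lists the fit called 1 gene, the neutrophil marker S100a8, higher by 0.65 (0.386% of all genes called higher). S100a9 had -0.01 and Ly6g -0.27, and 4 of the 6 neutrophil differences were positive. Of these 6 markers, 5 lay below the 25th percentile of level, S100a8 among them.

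Slc7a5 and Slc3a2 encode the light and heavy chains of one exchanger. The light chain LAT1 moves leucine and other large neutral amino acids, and the heavy chain CD98 brings it to the cell surface. Slc7a5 read 6.46, 6.39 and 6.40 in the IL-6 livers and 6.29, 6.22 and 6.31 in the saline livers. The IL-6 arrays lay above the saline arrays throughout, by 0.14 ± 0.07, and the difference lay between 0.12 and 0.16 under every alternative run. Slc3a2 read 8.68, 8.69 and 8.78 in the IL-6 livers and 8.72, 8.38 and 8.57 in the saline livers. Its difference was 0.16 ± 0.10, but saline replicate 1 lay above 2 IL-6 arrays and the groups overlapped. It was 0.25 without saline replicate 1, 0.08 without saline replicate 2 and 0.04 without both arrays that stood apart.

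Slc43a1 encodes LAT3, a uniporter of branched-chain amino acids. It read 6.65, 6.22 and 6.78 in the IL-6 livers and 5.89, 6.32 and 6.10 in the saline livers. IL-6 replicate 2 lay below saline replicate 2, so the groups overlapped, and the spread within each group was the widest of the 10 members. The difference was 0.45 ± 0.15, and over the alternatives it ran from 0.33, when IL-6 replicate 3 was left out, to 0.62, when IL-6 replicate 2 was. Its 95% interval, not adjusted for the number of genes, ran from 1.07-fold to 1.74-fold. Slc1a5, which encodes the glutamine exchanger ASCT2, read 5.46, 5.54 and 5.35 in the IL-6 livers and 5.48, 5.55 and 5.47 in the saline livers. The groups overlapped, with a difference of -0.05 ± 0.08 and a 95% interval from 0.86-fold to 1.09-fold.

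**Figure D2:**
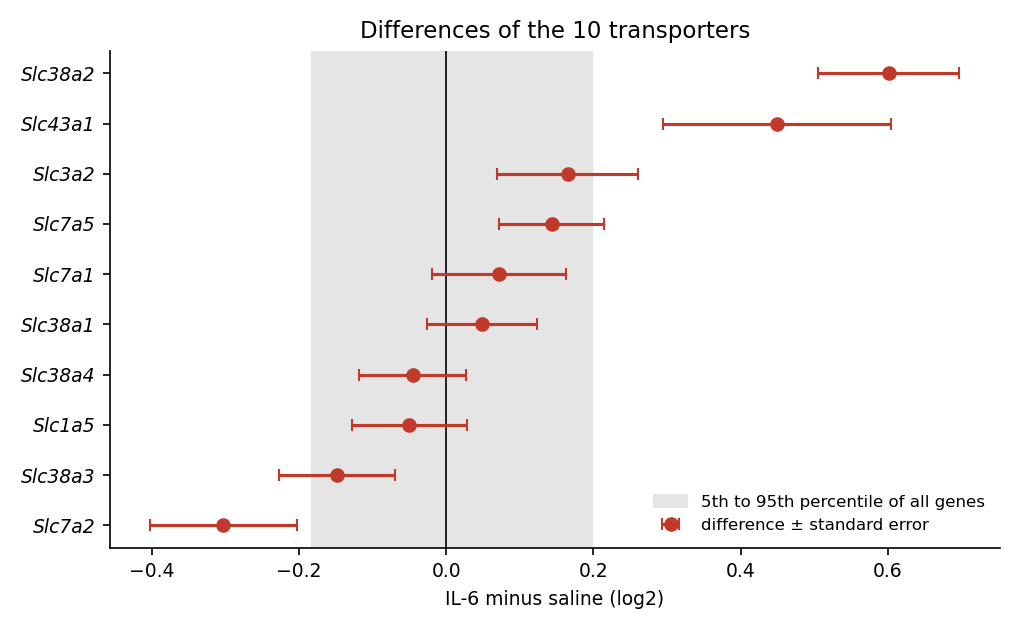
Log2 difference, IL-6 minus saline, of each of the 10 transporters with its moderated standard error from limma (3 arrays per group). The grey band runs from the 5th to the 95th percentile of all genes (-0.18 to 0.20). Slc38a2 (0.60) and Slc43a1 (0.45) lie above the band, Slc7a2 (-0.30) lies below it, and the other 7 lie within it.

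The genes whose pattern over the 6 arrays was most like that of Slc38a2 were E2f8 (Pearson r = 0.989), Abcb10 (0.988), Irf2bp2 (0.986), D10Wsu102e (0.984) and Iigp1 (0.984). These correlations span both groups and so mostly carry the step between them. E2f8, an E2F-family transcription factor gene, had a log2 difference of 0.77, Iigp1, an interferon-inducible GTPase gene, 0.66 and D10Wsu102e 0.64. Irf2bp2, a corepressor gene, had 0.33, and Abcb10, a mitochondrial ABC transporter gene, had 0.16. In each of these genes, as in Slc38a2, IL-6 replicate 1 was the lowest IL-6 array and saline replicate 3 the lowest saline array. The genes were picked for their correlation over these same arrays, so this shared order is part of the pick and no further likeness.

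Of 55 other amino acid carriers, all measured, limma called 0 higher and 0 lower over all genes, and the highest difference among them was 0.19 (Slc25a2). At an unadjusted limma p under 0.05, 8 were lower and 0 higher, against 565 lower and 754 higher among all 19938 genes. Differences were positive in 16 of the 55, against 51.1% of all genes, with a median of -0.04, and 10 of the 55 lay below the 25th percentile of level. The other 7 SLC38 genes had differences from -0.15 (Slc38a5, limma adjusted p = 0.920) to 0.04 (Slc38a6).

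Among 13 further SLC7 and SLC3 carriers, Slc7a10, a carrier of small neutral amino acids, had the smallest p. It read 5.40, 5.27 and 5.33 in the IL-6 livers and 5.55, 5.63 and 5.57 in the saline livers, with a difference of -0.25 ± 0.07 that did not pass (limma adjusted p = 0.438). The IL-6 arrays all lay below the saline arrays in 9 of the 55 carriers, Slc7a10 among them (5.48% of all genes), and all above them in 1 (6.15%). Among 26 carriers of the SLC1, SLC6, SLC16, SLC36 and SLC43 families, the betaine and GABA carrier Slc6a12 had -0.29 ± 0.09 (limma adjusted p = 0.509). Among 9 mitochondrial carriers, Slc25a15, which brings ornithine into the urea cycle, had -0.23 ± 0.10 (limma adjusted p = 0.717).

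Genes of the amino acid response and other ATF4 targets, to which Slc38a2 is known to belong, differed in both directions. Of 28 measured, 1 was called higher (0.386% of all genes), 0 lower (0.0351%), and 15 differences were positive (51.1% of all genes). At an unadjusted limma p under 0.05, 4 of the 28 were higher and 6 lower, against 754 higher and 565 lower among all 19938 genes. The median difference was 0.03, while the list averaged -0.06, 0.00 and -0.03 in the IL-6 arrays relative to the saline mean, so median and mean differed in sign. The called gene was Atf3, a stress-induced transcription factor that many pathways besides ATF4 induce. It read 5.92, 6.08 and 5.91 in the IL-6 livers and 5.48, 5.28 and 5.41 in the saline livers, a rise of 0.58 ± 0.09 (limma adjusted p = 0.0230). That call held without saline replicate 1 and was lost without each of the other 5 arrays (limma adjusted p 0.0740 to 0.0965).

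Other members of that list, named here after their values were seen, did not pass the test. Asns, which encodes asparagine synthetase, the textbook ATF4 target, read 6.27, 5.90 and 6.41 in the IL-6 livers and 7.85, 6.15 and 6.39 in the saline livers. Saline replicate 1 stood far above every other array, and it was also the highest saline array for Slc38a2. The Asns difference was -0.60 ± 0.37 (limma adjusted p = 0.872). Atf4 itself had a difference of 0.12 ± 0.09 (limma adjusted p = 0.901). Cebpb, which encodes a C/EBP factor, had 0.38 ± 0.12 (limma adjusted p = 0.522). Chac1, a glutathione-degrading enzyme gene, had 0.36 ± 0.09 and Ddit3, which encodes CHOP, 0.33 ± 0.10 (limma adjusted p = 0.326 and 0.504). On the negative side stood Ddit4 (-0.70 ± 0.21) and Sesn2 (-0.37 ± 0.09), inhibitors of mTORC1, and Cth (-0.38 ± 0.11), which makes cysteine (limma adjusted p = 0.465, 0.218 and 0.450). Ddit4 read 6.93, 7.91 and 7.10 in the saline livers, highest in saline replicate 2, which stood apart. The hormone gene Fgf21 had -0.59 ± 0.18 and Trib3, a pseudokinase gene, -0.27 ± 0.08 (limma adjusted p = 0.465 and 0.403). Herpud1 had -0.22 ± 0.09 (limma adjusted p = 0.696).

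**Figure D3:**
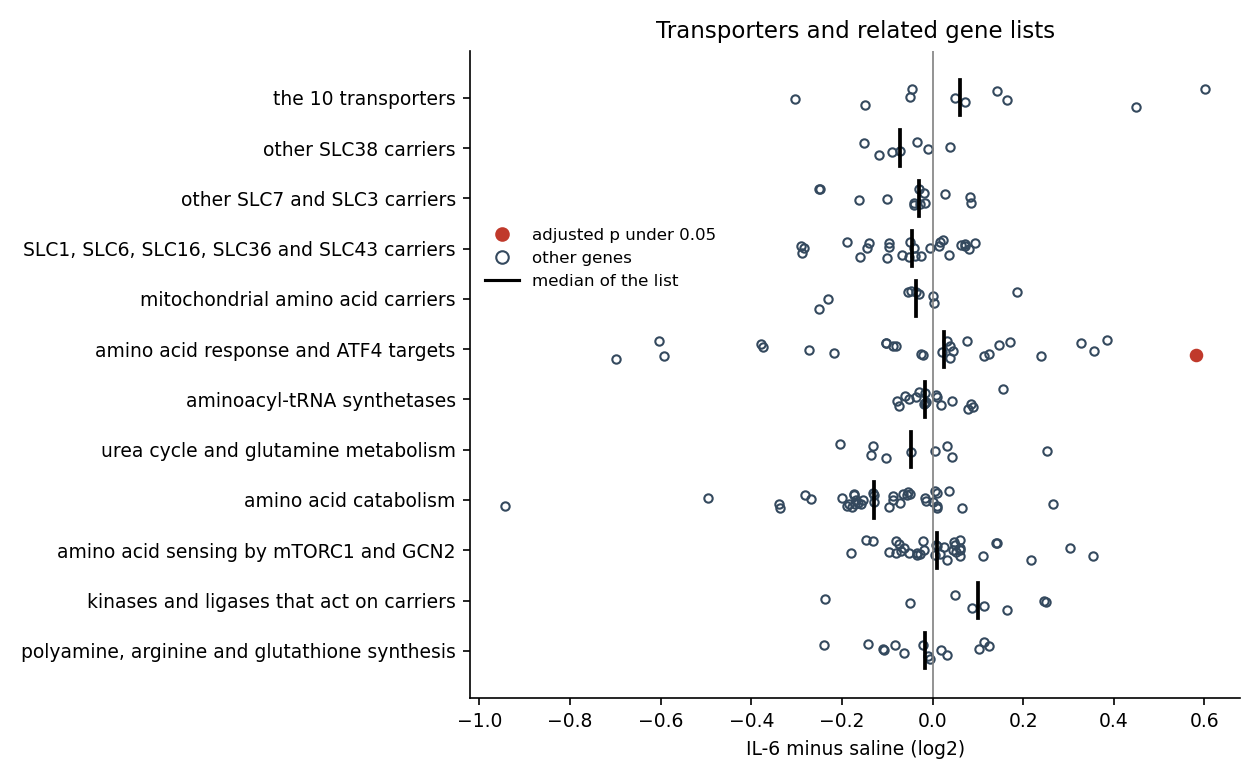
Log2 difference, IL-6 minus saline, of every measured gene of the 10 transporters and of 11 related lists, 1 point per gene with random vertical scatter. The filled point is Atf3, the only gene of the related lists with a limma adjusted p under 0.05 over all genes, the 10 transporters carry no mark of a test, and black bars are list medians, from -0.13 for amino acid catabolism to 0.10 for kinases and ligases that act on carriers.

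Amino acid catabolism, the set of enzymes that break down what the carriers bring in, held no called gene. Of its 38 measured genes limma called 0. At an unadjusted limma p under 0.05, 6 were lower and 0 higher, against 565 lower and 754 higher among all 19938 genes. The median difference of the list was -0.13, against 0.00 for all genes, and 8 of 38 were positive, against 51.1% of all genes. Relative to the saline mean the list averaged -0.06, -0.26 and -0.09 in IL-6 replicates 1, 2 and 3, against -0.01, 0.06 and -0.05 in the saline arrays, so IL-6 replicate 2 was again the lowest. Acmsd, which diverts a tryptophan breakdown product away from NAD synthesis, read 6.98, 6.33 and 6.83 in the IL-6 livers and 7.58, 8.24 and 7.16 in the saline livers. The groups did not overlap, and the difference of -0.94 ± 0.25 did not pass (limma adjusted p = 0.350). The highest array for Acmsd was saline replicate 2, which stood apart.

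Of 9 genes of the urea cycle and glutamine metabolism, limma called 0, with 0 at an unadjusted p under 0.05. Asl, which encodes argininosuccinate lyase, had the smallest p, at -0.20 ± 0.11 (limma adjusted p = 0.836). Of 35 genes listed for amino acid sensing by mTORC1 and the kinase GCN2, limma called 0. The list also held the kinase genes Eif2ak1, Eif2ak2 and Eif2ak3, which are not specific to amino acids. It left out Sesn2, which was counted in the amino acid response list. At an unadjusted limma p under 0.05, 2 were higher and 0 lower (754 and 565 of all 19938 genes). The 2 were Rragd and Eif2ak2 (0.30 ± 0.08, limma adjusted p = 0.342), the latter named after its value was seen. Rragd, which encodes a Rag GTPase that brings mTORC1 to the lysosome, read 5.33, 5.19 and 5.06 in the IL-6 livers and 4.85, 4.92 and 4.75 in the saline livers. Its difference of 0.35 ± 0.09 did not pass (limma adjusted p = 0.311). Of 8 kinases and ligases known to act on carriers, limma called 0, with 1 lower at an unadjusted p under 0.05 (565 of all 19938 genes). It was the kinase gene Pdpk1 at -0.24 ± 0.10 (limma adjusted p = 0.686). Nedd4l, whose product marks SNAT2 for degradation, had 0.16 ± 0.11 (limma adjusted p = 0.885) and is named after its value was seen.

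**Figure D4:**
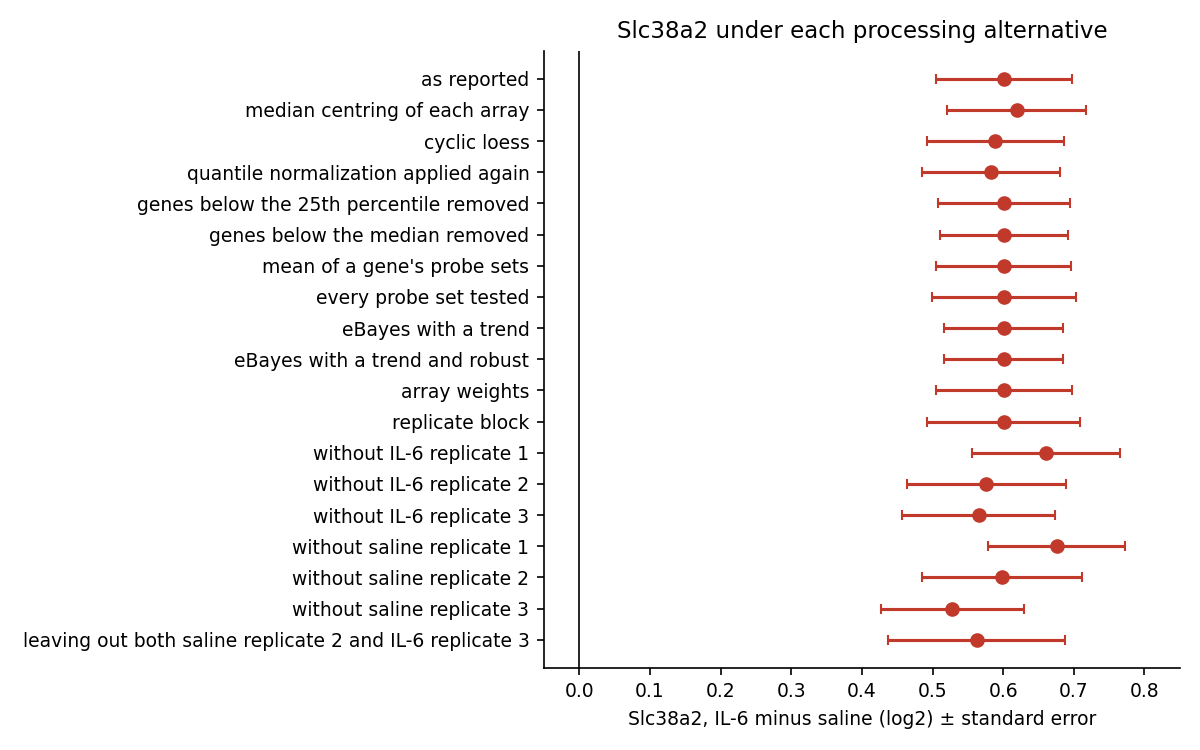
Log2 difference of Slc38a2, IL-6 minus saline, with its moderated standard error as reported and under each of 18 alternatives. The difference runs from 0.53 to 0.68. The level filters, probe-set settings, variance priors and replicate block cannot move it and change its standard error.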

How the data were processed

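Total RNA of 6 livers was biotin-labelled and hybridised to 1-colour Affymetrix arrays. The deposited values are log2 expression per probe set, made by the authors with RMA, per the submitters' processing notes. The sources used here give neither its version nor its settings. RMA quantile-normalizes arrays and can compress changes. No scanner intensities were used, so background was not assessed, and the number of arrays limits precision (median standard error 0.089 log2 units).

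The platform table gave exactly 1 symbol to 21789 of 35556 probe sets. The probe set with the highest mean was kept per gene, which left 19938 genes. IL-6 minus saline was fitted across all genes with limma 3.58.1 in R 4.3.3 (lmFit and eBayes, two-sided, Benjamini-Hochberg, threshold 0.05, no covariates) and was tested on simulated data. RefSeq promoter windows on GRCm38.p6 were matched by symbol. Protein identity was not analysed here.

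The members and lists were chosen with earlier results of these data known. Named genes were the 10 members, Socs3, the 5 genes most correlated with Slc38a2, and of each related list up to 4 called genes or else the gene with the smallest p. Alternatives covered scaling, filters, probe sets, variance priors, weights, thresholds, a replicate block and left-out arrays. Figures used matplotlib 3.10.9.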

Additional observations from a re-analysis of the deposited data

How the results depend on the processing

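The Slc38a2 difference ran from 0.53 to 0.68 over the 18 alternatives and moved by less than the spread between replicates. Only scaling, array weights and left-out arrays could move it. By construction, the level filters, probe-set settings, variance priors and replicate block left it at 0.60 and changed its standard error. In place of 84 called genes, 17 probe sets were called when every probe set was tested, 43 genes at a threshold of 0.01, and 33 genes (31 higher, 2 lower) without both saline replicate 2 and IL-6 replicate 3. In those 3 settings the called members and the called genes of the related lists were both 0, in place of 1 each. With the replicate number as a replicate block, 65 genes were called and both counts were 0. Same-numbered arrays had correlations of deviations of 0.08, -0.12 and -0.09, and 1 of 3 IL-6 arrays correlated best with its own number. With so few arrays these values cannot settle whether the numbers pair the arrays. All 5 motif matches in member windows lay in the 250 bases before the start. Removing genes below the median of level took out Atf3 and left 0 related genes called. Leaving out 1 array gave 49 to 72 called genes. The counts of called members and of called related genes were both 1 without saline replicate 1, and both 0 without any other single array. Among the other members, the Slc38a1 difference was 0.22 with the mean of its probe sets, Slc1a5 turned to 0.02 without both arrays that stood apart, and Slc7a1 turned to -0.01 without IL-6 replicate 1. The signs of the other 7 members, Slc38a2 not counted, held in every alternative run.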

Other observations

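Of 18 measured aminoacyl-tRNA synthetases, which charge tRNAs with amino acids, limma called 0 and had 0 at an unadjusted p under 0.05. Differences ran from -0.08 (Lars) to 0.15 (Vars), whose 3 IL-6 arrays (7.43, 7.37 and 7.53) lay above the 3 saline arrays (7.27, 7.31 and 7.29) without passing the test (limma adjusted p = 0.795). Of 14 genes of polyamine, arginine and glutathione synthesis, limma called 0, with 1 lower at an unadjusted p under 0.05 (565 of all 19938 genes). That gene, Chac2, which degrades glutathione, had -0.24 ± 0.08 (limma adjusted p = 0.531).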
